A study of Drosophila melanogaster with 52 samples.

Results

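The Polycomb group encodes the subunits of 2 chromatin complexes and the factors that bring them to DNA, and 10 of its genes are described here through their RNA in early *Drosophila melanogaster* embryos. They are *Pc*, *ph-p*, *ph-d*, *Psc*, *Sce*, *Scm*, *E(z)*, *esc*, *Su(z)12* and *pho*, chosen by gene name from the 16680 genes of every file, and all 10 passed the filter on low counts in all 5 experiments. RNA was sequenced from 52 pools of hand-selected embryos, 2 for each of 26 groups of genotype and age. The ages were 0.5 to 1 h, 1 to 1.5 h and, for the *HIRA* and *H3.3* experiments only, 2.5 to 3 h. The tested embryos were of 6 kinds. In dPCIF1-mislocalized embryos a GFP knock-in of dPCIF1 (gene *CG11399*) was held on lipid droplets by JabbaTrap (VhhGFP4-jabba-VhhGFP4, a GFP-binding protein fused to a droplet protein), which acts on the protein. *HIRA* maternal mutant embryos, labelled M-Z+, came from mothers without HIRA, the chaperone that deposits histone H3.3. The label does not say which of these embryos received a working paternal copy of the gene. The paper cites a role of HIRA in forming the diploid zygote, and whether these embryos held a paternal genome was not tested. Most of them were reported to be arrested or delayed by the last age. *H3.3* maternal mutant embryos, also M-Z+, came from the few surviving females without *H3.3A* and *H3.3B*. Embryos overexpressing HIRA together with dPCIF1, or HIRA alone, carried UASp transgenes of myc-tagged proteins, and the stocks included the maternal driver matalpha4-GAL-VP16. Embryos with dPCIF1 S111A S115A carried a CRISPR knock-in in which serines at these places of dPCIF1 were replaced by alanine. Each experiment had its own wild type, w1118. The 2 libraries of a group are separate pools. The p-values measure only the spread between such pools, estimated over all groups of an experiment.

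Polycomb group proteins keep developmental genes such as the Hox genes silent in cells where they were not switched on. Polycomb repressive complex 2 (PRC2) methylates histone H3 at lysine 27, through E(z), the methyltransferase, with Su(z)12 and the WD40 protein Esc as its core partners. PRC1 binds that mark through the chromodomain of Pc and holds chromatin compact. Its other subunits are Psc, the 2 Polyhomeotic proteins encoded by *ph-p* and *ph-d*, and the ubiquitin ligase Sce, also known as Ring. Scm links PRC1 to other Polycomb proteins through its SAM domain. Pho is a DNA-binding protein that recognises Polycomb response elements and helps to recruit the complexes. A fly egg is loaded by the mother with RNAs for many of these proteins, and the embryo begins to transcribe its own genome during the nuclear divisions sampled here, so an RNA level in these pools is the sum of maternal and zygotic RNA. In such bulk samples fewer nuclei transcribing a gene and less RNA from each nucleus cannot be told apart.

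All 10 genes are annotated on the minus strand of dm6 (BDGP6 annotation). *ph-d* (X, 2115727 to 2123286) and *ph-p* (X, 2126210 to 2138371) are tandem copies 2923 bp apart. *Pc* (3L, 21306138 to 21318020), *E(z)* (3L, 10634575 to 10638130) and *Su(z)12* (3L, 19918242 to 19923462) share a chromosome arm. *Psc* lies at 2R, 12965997 to 12980994, beside its relative *Su(z)2*. *Sce* (3R, 27680431 to 27682029) and *Scm* (3R, 9633359 to 9637611) lie on the other arm of chromosome 3, *esc* (2L, 11827204 to 11829405) lies within the span of *Pde1c* on the same strand, and *pho* (4, 1172469 to 1181628) is on the smallest chromosome. Because of their likeness *ph-p* and *ph-d* share reads: their estimated counts were not whole numbers in 52 of 52 libraries, whereas those of *Sce* and *pho* were not whole in 1 library each and those of the other 6 genes were whole throughout. The split of reads between the tandem copies is therefore uncertain, and their sum is given where it matters.

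Libraries held 15073545 to 31579940 counted reads, with a median of 23610130. *Hira* RNA was 73.6 and 72.98 CPM (counts scaled to the normalized library size, written as CPM throughout) in *HIRA* mutant embryos against 175 and 165 CPM in wild type at 0.5 to 1 h, so it was lower but not absent, and at 2.5 to 3 h it had 20.4 and 18.3 CPM in mutants and 10.8 and 10.01 CPM in wild type. *Hira* RNA reached 2359.6 and 2333 CPM under HIRA overexpression, against 165 and 163 CPM in wild type at that age. *His3.3B* had 252 and 246 CPM in *H3.3* mutants and 682 and 708 CPM in wild type at 0.5 to 1 h, and *CG11399* had 78.5 and 76.6 CPM in S111A S115A embryos and 389 and 398 CPM in wild type, so the RNA of the knock-in allele was scarcer than that of the normal one. In dPCIF1-mislocalized embryos *CG11399* had 380 and 380 CPM at 0.5 to 1 h, against 330 and 346 CPM in wild type (log2 fold change 0.17, adjusted p = 7.28e-05). At 1 to 1.5 h it had 299 and 293 CPM, against 391 and 393 CPM (log2 fold change -0.41, adjusted p = 1.08e-09). Summed RNA of 10 early zygotic genes ran from 23.8 to 1879 CPM and that of 7 maternal genes from 87.7 to 3607 CPM over the libraries. Summed markers of other tissues ranged widely, from 0 to 166 CPM for follicle cells, 0.0709 to 403 CPM for yolk proteins and 0.0716 to 892 CPM for muscle. Follicle cell RNAs summed to 141 and 166 CPM and yolk protein RNAs to 359 and 403 CPM in *H3.3* mutants at 1 to 1.5 h, and the yolk sum was also high in wild type of the S111A S115A experiment at that age, with 126 and 129 CPM. Muscle RNAs summed to 892 and 889 CPM in *H3.3* mutants at 2.5 to 3 h, and wild type was far above the mutants at every age of the *HIRA* experiment. The part of these markers in the results was not tested. The 2 libraries of a group differed by more than counting noise everywhere, most in the wild-type pools that accompany *HIRA* mutants at 0.5 to 1 h, where chi-square per degree of freedom was 38.9, then in wild type collected with *H3.3* mutants at 2.5 to 3 h (23.9) and in *HIRA* mutants at 1 to 1.5 h (20.6). In the pair of groups from the *HIRA* experiment replicate 1 lay below replicate 2 for long transcripts (5000 bases or more), with a median log2 difference of -0.16 and -0.13. Among the members the libraries of these groups lay furthest apart for *pho* and *Psc*, and those of the *H3.3* wild type for *Pc* and *pho*.

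In wild type, *ph-p* was scarce at first and rose most by 2.5 to 3 h, *Psc* and *ph-d* rose less and *Scm* and *esc* fell by then, *Sce* moved little and not in 1 direction, and *E(z)* and *Su(z)12* were lower at 1 to 1.5 h than before and higher again at 2.5 to 3 h. On the per-length TPM scale, which allows genes to be compared within a library, *ph-p* was the lowest of the 10 at 0.5 to 1 h, with 3.08 and 3.54 TPM in wild type of the *HIRA* experiment, against 26.3 and 31.5 TPM for *ph-d* in the same libraries. By 2.5 to 3 h *ph-p* had 67.0 and 67.7 TPM there and *ph-d* 49.5 and 46.7 TPM. Over all wild-type libraries the median TPM was highest for *Scm* at 0.5 to 1 h (112 TPM) and for *pho* at 1 to 1.5 h (111.2 TPM) and 2.5 to 3 h (96.8 TPM), while *Scm* had the lowest median at 2.5 to 3 h (38.7 TPM), next to *esc* (39.0 TPM). The ranges of these neighbours over libraries overlapped.

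**Figure D1:**
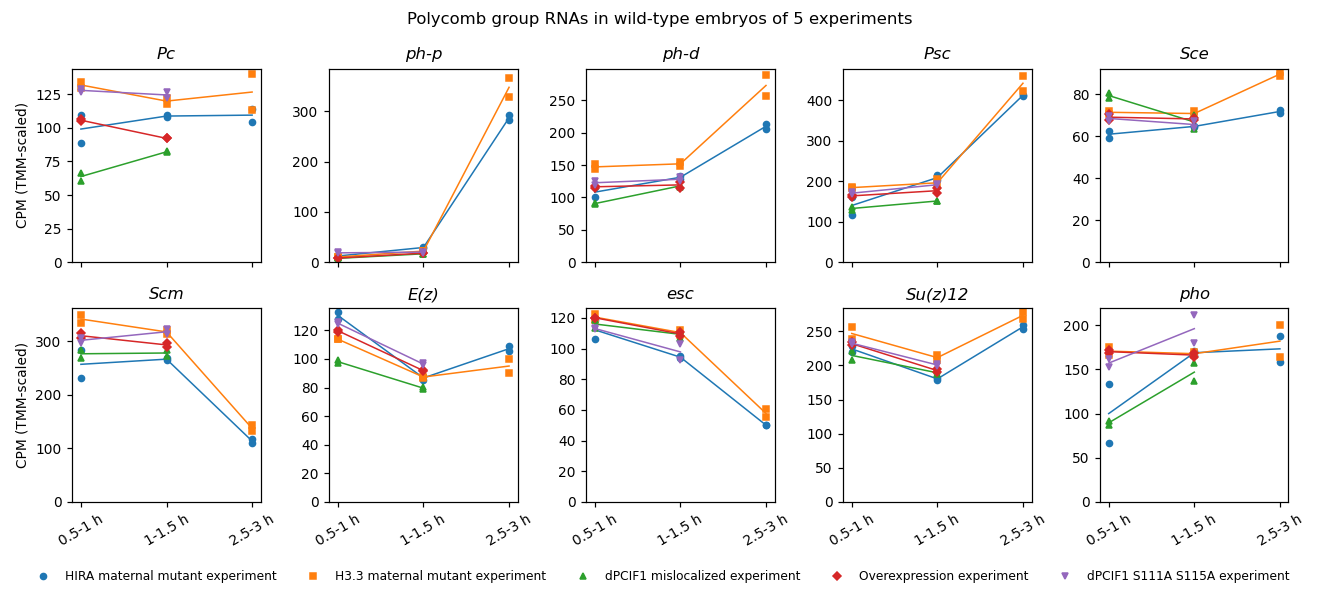
CPM of the 10 members in wild-type embryos against age, 1 panel a gene. Each point is a library, each line joins the means of 2 libraries, and colours mark the 5 experiments; *ph-p* lies at 7.62 to 19.7 CPM at 0.5 to 1 h and at 283 to 367 CPM at 2.5 to 3 h.

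Between 1 to 1.5 h and 2.5 to 3 h, *ph-p* had 283 and 292 CPM at the later age and 29.6 and 29.2 CPM at the earlier age in the *HIRA* experiment (log2 fold change 3.29, SE 0.06, adjusted p = 2.26e-12). In the *H3.3* experiment *ph-p* had 329 and 367 CPM at 2.5 to 3 h and 21.7 and 22.8 CPM at 1 to 1.5 h (log2 fold change 3.97, SE 0.08, adjusted p = 6.93e-17). This is a 9.77-fold and a 15.6-fold rise. *ph-d* rose 1.60-fold and 1.79-fold over the same interval (adjusted p = 2.39e-06 and 8.76e-10). *Psc*, which holds PRC1 together with its ring partner, had 410.4 and 414 CPM at 2.5 to 3 h and 215 and 203 CPM at 1 to 1.5 h in the *HIRA* experiment (log2 fold change 0.98, SE 0.15, adjusted p = 8.39e-05), and its log2 fold change was 1.17 in the *H3.3* experiment (adjusted p = 1.09e-11). *Sce* rose less (log2 fold change 0.15 and 0.34, adjusted p = 0.0414 and 1.77e-05), and in the *HIRA* experiment its call was lost whichever of the 4 libraries was left out (adjusted p = 0.26 to 0.399). *Su(z)12* rose by a log2 of 0.51 and 0.37 (adjusted p = 1.10e-06 and 3.60e-06) and *E(z)* by 0.31 and 0.12 (adjusted p = 7.73e-04 and 0.0407). The *E(z)* value in the *H3.3* experiment was 0.04 without wild-type replicate 1 at 2.5 to 3 h (adjusted p = 0.563) and also lost its call without either library at 1 to 1.5 h (adjusted p = 0.148 and 0.202). The RNA of *Scm* fell to 116 and 110.6 CPM at 2.5 to 3 h, against 264 and 269 CPM at 1 to 1.5 h (log2 fold change -1.23, SE 0.10, adjusted p = 3.04e-07). In the *H3.3* experiment its log2 fold change was -1.21 (adjusted p = 3.77e-12). *esc* fell in both, with log2 fold changes of -0.91 and -0.93 (adjusted p = 4.77e-08 and 9.00e-11). In the *HIRA* experiment 6 members rose (50.4% of the 10638 genes tested rose) and 2 fell (37.9%), and in the *H3.3* experiment 6 rose (45.9% of 10644 genes) and 2 fell (36.9%), so the shares called lie near those of all genes. The members' median log2 fold change was 0.23 in the *HIRA* and 0.23 in the *H3.3* experiment, and that of all genes 0.32 and 0.28. The value over all genes depended on the scaling, with 0.17 in the *HIRA* experiment when all 52 libraries were scaled together and 0.03 in the *H3.3* experiment when only the 2 groups were fitted. *Pc* and *pho* passed the test in neither, though without wild-type replicate 1 at 2.5 to 3 h in the *H3.3* experiment they came to 0.21 and 0.24 (adjusted p = 0.015 and 0.00133).

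From 0.5 to 1 h to 1 to 1.5 h the PRC2 genes *E(z)* and *Su(z)12* fell in all 5 wild types. *E(z)* had 91.5 and 92.1 CPM at 1 to 1.5 h and 120.3 and 119 CPM at 0.5 to 1 h in the overexpression experiment, and its log2 fold change ran from -0.59 to -0.30 over the 5 (highest adjusted p = 4.21e-05). For *Su(z)12* it ran from -0.31 to -0.18 (highest adjusted p = 0.00407, in the *H3.3* experiment, where it was 0.127 without wild-type replicate 1 at 0.5 to 1 h and 0.103 without replicate 1 at 1 to 1.5 h). *ph-p* rose in 4 of the 5, with log2 fold changes of 1.10 to 1.25 and adjusted p of at most 2.43e-07. In wild type of the S111A S115A experiment it had 21.2 and 19.2 CPM at 1 to 1.5 h and 17.7 and 19.7 CPM at 0.5 to 1 h, which overlap (log2 fold change 0.11, adjusted p = 0.353). Zygotic markers summed to 96.4 and 99.9 CPM in that wild type at 0.5 to 1 h, the highest of the 5 wild types at this age. Members that changed numbered 8 in the dPCIF1-mislocalized experiment (65.7% of genes), 7 in the *HIRA* (41.5%), 3 in the *H3.3* (17.3%), 6 in the overexpression (29.2%) and 5 in the S111A S115A experiment (33.3%). The count of the *HIRA* experiment was 4 without wild-type replicate 1 of either age, and that of the S111A S115A experiment 3 without wild-type replicate 2 at 0.5 to 1 h. Wild-type levels also differed between experiments: *pho* had 87.5 and 91.5 CPM in the dPCIF1-mislocalized and 66.8 and 133 CPM in the *HIRA* experiment at 0.5 to 1 h, but 171 and 169 CPM in the overexpression experiment, so each mutant is set only against its own wild type.

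*ph-p* differed from wild type in all 14 comparisons of a genotype with wild type, and it was the member with the widest range, from 7.72 ± 0.141 CPM to 348 ± 27.3 CPM over the 26 group means (SD, n = 2). It was higher than wild type in 11 of the 12 comparisons at 0.5 to 1 h and 1 to 1.5 h, the other being *HIRA* mutants at 1 to 1.5 h, and lower in both mutants at 2.5 to 3 h. In dPCIF1-mislocalized embryos it had 88.9 and 81.8 CPM at 1 to 1.5 h, against 16.9 and 16.9 CPM in wild type (log2 fold change 2.34, SE 0.06, adjusted p = 5.35e-16), a 5.05-fold difference. At 0.5 to 1 h it had 11.3 and 11.8 CPM and wild type 7.62 and 7.82 CPM (log2 fold change 0.58, SE 0.09, adjusted p = 1.68e-05). These libraries do not overlap with their wild type at either age.

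Under HIRA overexpression *ph-p* had 32.1 and 29.7 CPM at 0.5 to 1 h, against 8.39 and 8.32 CPM in wild type (log2 fold change 1.89, SE 0.07, adjusted p = 1.25e-13). At 1 to 1.5 h it had 48.0 and 46.5 CPM, against 18.6 and 17.7 CPM in wild type (log2 fold change 1.38, SE 0.06, adjusted p = 2.00e-13). With S111A S115A it had 42.9 and 42.1 CPM at 1 to 1.5 h, against 21.2 and 19.2 CPM in wild type (log2 fold change 1.08, SE 0.08, adjusted p = 1.27e-07), and 25.4 and 25.9 CPM at 0.5 to 1 h, against 17.7 and 19.7 CPM (log2 fold change 0.46, adjusted p = 5.96e-04). All of these libraries lay above their wild type. In *H3.3* mutants the direction changed with age. *ph-p* had 27.2 and 23.6 CPM at 0.5 to 1 h, against 11.1 and 9.74 CPM in wild type (log2 fold change 1.29, SE 0.09, adjusted p = 1.04e-08). At 2.5 to 3 h it had 98.8 and 93.6 CPM, against 329 and 367 CPM in wild type (log2 fold change -1.86, SE 0.07, adjusted p = 5.64e-13). In *HIRA* mutants it had 19.6 and 21.5 CPM at 0.5 to 1 h, against 11.8 and 13.1 CPM (log2 fold change 0.73, adjusted p = 1.52e-05), and 167 and 163 CPM at 2.5 to 3 h, against 283 and 292 CPM (log2 fold change -0.80, adjusted p = 2.47e-07). In between, at 1 to 1.5 h, the mutant had 22.1 and 23.3 CPM and wild type 29.6 and 29.2 CPM (log2 fold change -0.37, adjusted p = 7.12e-04).

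**Figure D2:**
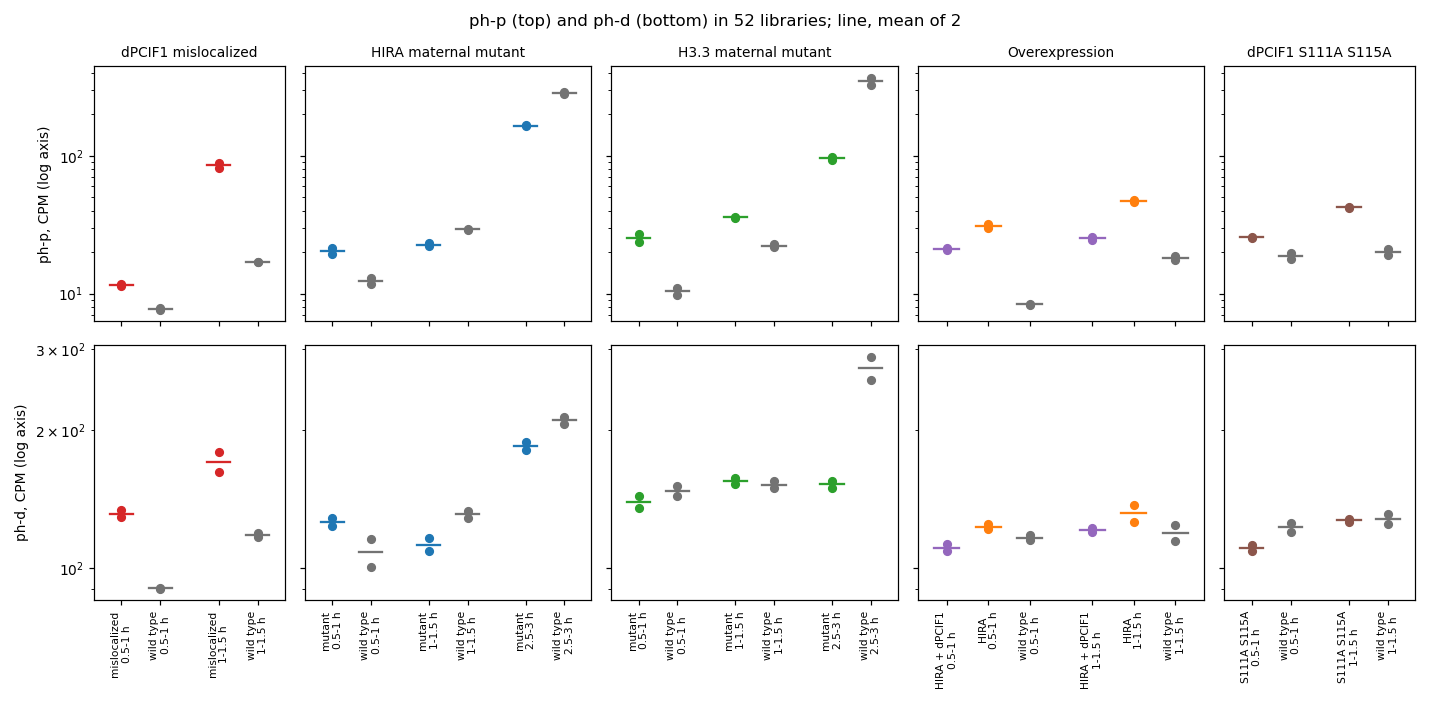
CPM on a log axis of *ph-p* (top row) and its tandem copy *ph-d* (bottom row) in all 52 libraries, 1 column an experiment. Points are libraries and lines are means of 2; dPCIF1-mislocalized embryos at 1 to 1.5 h lie at 81.8 and 88.9 CPM of *ph-p*, against 16.9 CPM in both wild-type libraries, while *ph-d* moves over a narrower range.

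The part of the *ph* RNA that came from *ph-p* was larger at 2.5 to 3 h than before in wild type and differed between genotypes. In wild type of the *HIRA* experiment its share of the summed TPM of both copies was 10.5% and 10.1% at 0.5 to 1 h. It was 57.5% and 59.2% there at 2.5 to 3 h. In wild type of the S111A S115A experiment it was 12.8% and 13.6% at 0.5 to 1 h. At 1 to 1.5 h it was 13.8% and 13.3% in that wild type, which overlap. The share of *ph-p* was 33.2% and 33.7% at 1 to 1.5 h in dPCIF1-mislocalized embryos, against 12.4% and 12.6% in wild type. At 2.5 to 3 h it was 39.0% and 38.6% in *H3.3* mutants, against 56.5% and 56.5% in wild type. The sum of both copies, which no division of shared reads can alter, was 268 and 244 CPM in dPCIF1-mislocalized embryos at 1 to 1.5 h, against 136 and 134 CPM in wild type (log2 fold change 0.92, adjusted p = 7.47e-13). It was 254 and 243 CPM in *H3.3* mutants at 2.5 to 3 h, against 586 and 656 CPM (log2 fold change -1.32, adjusted p = 7.47e-12). Under HIRA overexpression the log2 fold change of the sum was 0.30 at 0.5 to 1 h (adjusted p = 4.04e-06). At 1 to 1.5 h it was 0.37 there (adjusted p = 6.80e-08) and 0.20 with S111A S115A (adjusted p = 0.00301). All of these were smaller than for *ph-p* alone. Between 1 to 1.5 h and 2.5 to 3 h the sum rose in wild type, also less than *ph-p*. Its log2 fold change was 1.63 in the *HIRA* and 1.83 in the *H3.3* experiment (adjusted p = 7.98e-10 and 5.10e-14). In 5 comparisons *ph-p* was higher than wild type and the sum did not pass the test. In these the log2 fold change of the sum was -0.05 with S111A S115A at 0.5 to 1 h (adjusted p = 0.442), 0.06 and 0.13 in *H3.3* mutants at 0.5 to 1 h and 1 to 1.5 h (adjusted p = 0.457 and 0.0931), and 0.08 and 0.09 with HIRA and dPCIF1 overexpressed at these ages (adjusted p = 0.0954 and 0.0747).

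In dPCIF1-mislocalized embryos at 1 to 1.5 h, *E(z)* and *Su(z)12* were lower and PRC1 genes other than *Pc* were higher than in wild type. *E(z)*, the PRC2 methyltransferase gene, had 39.0 and 38.7 CPM, against 79.0 and 80.1 CPM in wild type (log2 fold change -1.03, SE 0.04, adjusted p = 1.90e-13). *Su(z)12* had 109.9 and 105 CPM, against 187 and 192 CPM (log2 fold change -0.82, SE 0.04, adjusted p = 8.53e-12). Neither pair overlaps, and *esc* and *Scm* were lower as well (log2 fold change -0.37 and -0.56, adjusted p = 1.55e-07 and 1.53e-10). *Psc* had 210.1 and 204 CPM, against 151 and 152 CPM in wild type (log2 fold change 0.45, adjusted p = 1.57e-09), and *ph-d* and *Sce* were higher too (log2 fold change 0.53 and 0.28, adjusted p = 2.54e-09 and 1.74e-05). All 10 members changed, 5 higher (40.0% of the 8700 genes tested were higher) and 5 lower (41.7% were lower), and 2 of the 10 changed by a log2 of more than 1 (27.2% of genes did). Their median log2 fold change was 0.02, and that of all genes -0.01. Zygotic markers summed to 833 and 812 CPM in these embryos, against 90.9 and 93.4 CPM in wild type, and maternal markers to 1785 and 1775 CPM, against 3033 and 3099 CPM, and their part in the result was not tested.

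At 0.5 to 1 h, *pho* and *Pc* were the members furthest above wild type in dPCIF1-mislocalized embryos. *pho* had 180.4 and 186 CPM, against 87.5 and 91.5 CPM in wild type (log2 fold change 1.03, SE 0.05, adjusted p = 1.39e-11). *Pc*, the reader of methylated lysine 27, had 110.9 and 111.2 CPM, against 60.8 and 66.7 CPM (log2 fold change 0.80, SE 0.04, adjusted p = 3.62e-11). This wild type had the lowest mean of the 5 for both genes at this age, each experiment being scaled on its own. In the 8 other wild-type libraries of 0.5 to 1 h *pho* ran from 66.8 to 175 CPM and *Pc* from 88.6 to 134 CPM. Zygotic markers at this age summed to 136 and 138 CPM in mislocalized embryos, against 25.1 and 23.8 CPM in wild type. Muscle markers summed to 40.8 and 41.1 CPM, against 1.10 and 1.48 CPM. At 1 to 1.5 h muscle markers ran the other way, with 4.86 and 4.65 CPM against 40.7 and 44.4 CPM. The part of these markers in the results was not tested. *E(z)* was already lower, with 68.1 and 69.6 CPM, against 97.0 and 99.2 CPM (log2 fold change -0.51, adjusted p = 1.91e-09). Of the 10 members 5 were higher (40.0% of genes) and 4 lower (34.3%), with a median log2 fold change of 0.12, against 0.06 over all genes. The change of *Pc* turned round between the ages, since it had 70.8 and 68.7 CPM at 1 to 1.5 h, against 81.8 and 82.5 CPM in wild type (log2 fold change -0.24, adjusted p = 6.91e-05), and the difference of the effects was -1.03 on the log2 scale (SE 0.06, adjusted p = 2.08e-10), where 16.1% of genes had a difference of effects beyond 1 with an adjusted p under 0.05.

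**Figure D3:**
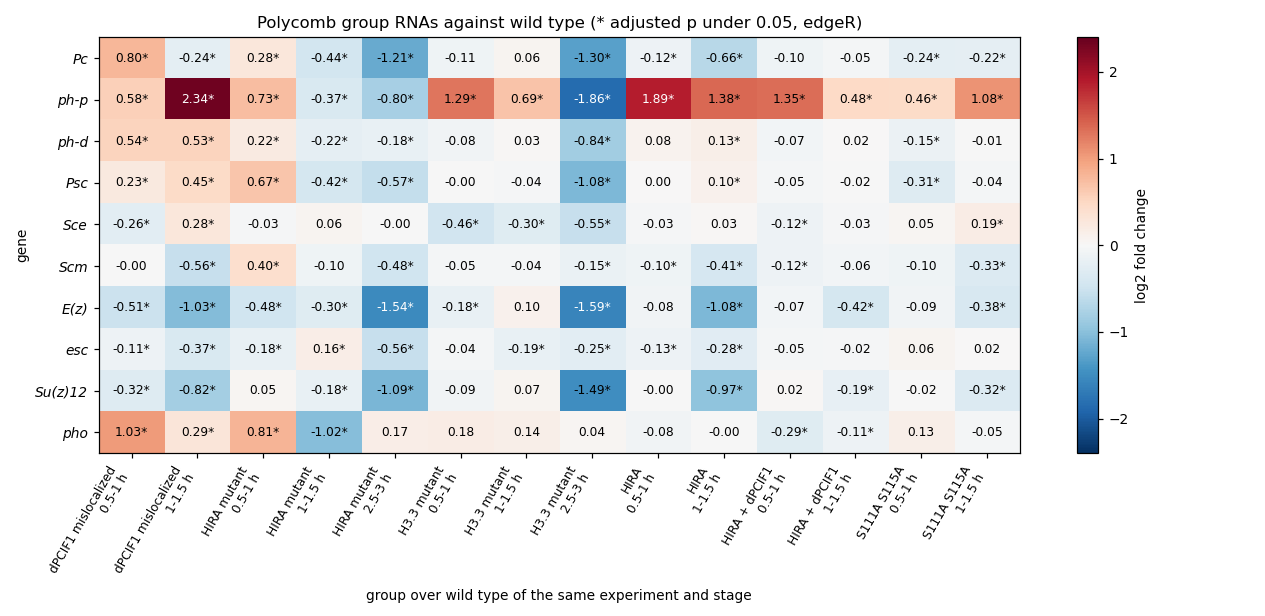
Log2 fold change of each member (rows) in 14 comparisons of a genotype over its own wild type (columns), with the value printed and a star where the adjusted p was under 0.05. *ph-p* is positive in 11 and negative in 3 columns, and *E(z)*, *Su(z)12* and *Pc* reach -1.09 to -1.59 in both mutants at 2.5 to 3 h.

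*HIRA* maternal mutant embryos at 2.5 to 3 h had less *E(z)*, *Su(z)12* and *Pc* RNA than wild type. *E(z)* had 34.5 and 39.3 CPM, against 106 and 109 CPM in wild type (log2 fold change -1.54, SE 0.07, adjusted p = 6.12e-09), or 2.90-fold lower. *Su(z)12* had 119.6 and 122 CPM, against 259.6 and 254 CPM (log2 fold change -1.09, SE 0.05, adjusted p = 6.12e-09). *Pc* had 48.3 and 46.6 CPM, against 114 and 105 CPM (log2 fold change -1.21, SE 0.10, adjusted p = 6.73e-07). All mutant libraries of these 3 genes lay below their wild type, and below the mutant's own level at 1 to 1.5 h. *Psc* had 283 and 273 CPM, against 410.4 and 414 CPM (log2 fold change -0.57, adjusted p = 0.00486). *Scm* and *esc*, which fell with age in wild type, were lower in the mutant, at 83.0 and 80.2 CPM against 116 and 110.6 CPM for *Scm* and at 32.8 and 35.1 CPM against 50.1 and 50.0 CPM for *esc* (log2 fold change -0.48 and -0.56, adjusted p = 0.001 and 8.82e-06). *Sce* had 69.5 and 73.9 CPM in mutants and 71.0 and 72.5 CPM in wild type, which overlap, and *pho* overlapped as well. No member was higher (26.9% of the 10638 genes tested were) and 8 were lower (48.1%), 3 of them by a log2 of more than 1 (27.7%). The members' median log2 fold change was -0.56 and that of all genes -0.28. With all 52 libraries scaled together the median of all genes was -0.04 in place of -0.28, and 3868 genes were higher and 4211 lower in place of 2861 and 5114. On that scale *E(z)* was still below -1 (log2 fold change -1.30), *Su(z)12* and *Pc* came to -0.86 and -0.98, *ph-d* was at 0.05 and *Sce* at 0.23 (adjusted p = 0.523 and 0.00778). The change of *ph-d* as first given (log2 fold change -0.18, adjusted p = 0.028) was lost whichever of the 4 libraries was left out (adjusted p = 0.0989 to 0.341). Zygotic markers summed to 872 and 880.3 CPM in mutants and 1642 and 1654 CPM in wild type, and maternal markers to 629 and 629 CPM in mutants and 87.7 and 87.7 CPM in wild type. Muscle markers summed to 2.72 and 3.09 CPM in mutants, against 608 and 601 CPM in wild type. The part of these markers in the results was not tested.

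At the earlier ages *HIRA* mutants gave smaller differences, and several rest on discordant libraries. *E(z)* was lower at both, with 90.5 and 97.0 CPM at 0.5 to 1 h, against 128 and 133 CPM (log2 fold change -0.48, SE 0.06, adjusted p = 1.52e-04), and 69.1 and 71.8 CPM at 1 to 1.5 h, against 85.3 and 88.1 CPM (log2 fold change -0.30, adjusted p = 0.00248, and -0.22 and 0.0564 without wild-type replicate 2). *pho* had 176 and 174 CPM at 0.5 to 1 h, against 66.8 and 133 CPM in wild type (log2 fold change 0.81, SE 0.27, adjusted p = 0.0258). At 1 to 1.5 h it had 66.4 and 99.7 CPM, against 171 and 167 CPM (log2 fold change -1.02, SE 0.27, adjusted p = 0.00853). The 2 wild-type libraries at 0.5 to 1 h and the 2 mutant libraries at 1 to 1.5 h lie far apart. Over the fits that left out 1 library the log2 fold change of *pho* ran from 0.41 to 1.36 at 0.5 to 1 h, lowest without wild-type replicate 1 (adjusted p = 0.0917), and from -1.35 to -0.71 at 1 to 1.5 h, nearest 0 without mutant replicate 1 (adjusted p = 0.0618). *Psc* went the same way, with 0.67 at 0.5 to 1 h and -0.42 at 1 to 1.5 h (adjusted p = 0.00368 and 0.033), and its own ranges were 0.47 to 0.89 and -0.67 to -0.17, the value nearest 0 at 1 to 1.5 h again coming without mutant replicate 1 (adjusted p = 0.313). Transcripts of 5000 bases or more, to which *Psc*, *ph-p* and *ph-d* belong, had median log2 fold changes of 0.22 at 0.5 to 1 h and -0.20 at 1 to 1.5 h. The part of length in the values of these genes was not tested. Of the members 6 were higher (22.5% of genes) and 2 lower (29.8%) at 0.5 to 1 h, and 1 was higher (20.1%) and 7 were lower (34.5%) at 1 to 1.5 h. Their median log2 fold change was 0.25 at 0.5 to 1 h and -0.26 at 1 to 1.5 h, and that of all genes -0.06 and -0.11. The 8 members changed at 0.5 to 1 h became 4 without wild-type replicate 1 and 5 without either mutant library, and the 8 at 1 to 1.5 h became 3 without mutant replicate 1 or wild-type replicate 2 and 4 without wild-type replicate 1. Zygotic markers at 1 to 1.5 h summed to 198 and 194 CPM in mutants and 424 and 425 CPM in wild type. Muscle markers summed to 0.0716 and 0.204 CPM in mutants and 177 and 173 CPM in wild type at 0.5 to 1 h, and to 0.265 and 0.276 CPM in mutants and 153 and 156 CPM in wild type at 1 to 1.5 h, and their part was not tested. The effect on *pho* at 1 to 1.5 h minus that at 0.5 to 1 h was -1.83 (SE 0.38, adjusted p = 0.00616, with 7.86% of genes beyond 1), and the effect on *E(z)* at 2.5 to 3 h minus that at 1 to 1.5 h was -1.24 (SE 0.09, adjusted p = 1.01e-06, with 20.7% of genes beyond 1).

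In *H3.3* maternal mutants 3 members differed from wild type at each of the earlier ages and 9 at 2.5 to 3 h. At 2.5 to 3 h *E(z)* had 31.3 and 32.1 CPM, against 99.7 and 90.5 CPM in wild type (log2 fold change -1.59, SE 0.06, adjusted p = 4.19e-13). *Su(z)12* had 98.8 and 96.0 CPM, against 268 and 279 CPM (log2 fold change -1.49, SE 0.05, adjusted p = 2.89e-13). *Pc* had 50.7 and 51.6 CPM, against 113 and 140.1 CPM (log2 fold change -1.30, SE 0.09, adjusted p = 1.26e-09). *Psc* had 212 and 206 CPM, against 423 and 461 CPM (log2 fold change -1.08, SE 0.06, adjusted p = 6.25e-11). For each of these genes both mutant libraries lay below both wild-type libraries, although the wild-type libraries at this age were among the most discordant. *ph-d* and *Sce* were also lower (log2 fold change -0.84 and -0.55, adjusted p = 1.55e-09 and 7.78e-08), *Scm* and *esc* only slightly (log2 fold change -0.15 and -0.25, adjusted p = 0.0211 and 8.98e-04), and *pho* had 189 and 185 CPM in mutants and 164 and 200.2 CPM in wild type, which overlap. *Scm* lost its call without mutant replicate 2 (adjusted p = 0.176) or wild-type replicate 2 (adjusted p = 0.204), and *pho* gained one without wild-type replicate 2 (log2 fold change 0.20, adjusted p = 0.00687). No member was higher (40.0% of the 10644 genes tested were), 9 were lower (42.5%), and 5 of them were lower by a log2 of more than 1 (17.7%). The members' median was -0.96, against -0.06 over all genes. Scaling by library totals raised the median of all genes to 0.25, with 5323 genes higher and 3213 lower in place of 4262 and 4527. It left 3 members lower by a log2 of more than 1, and put *Scm* at 0.16 and *esc* at 0.07 (adjusted p = 0.0187 and 0.285). Zygotic markers summed to 1084 and 1098 CPM in mutants and 1651 and 1879 CPM in wild type, and maternal markers to 1059 and 1046 CPM in mutants and 167 and 161 CPM in wild type. Muscle markers summed to 892 and 889 CPM in mutants, against 56.5 and 54.9 CPM in wild type. The part of these markers in the results was not tested.

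**Figure D4:**
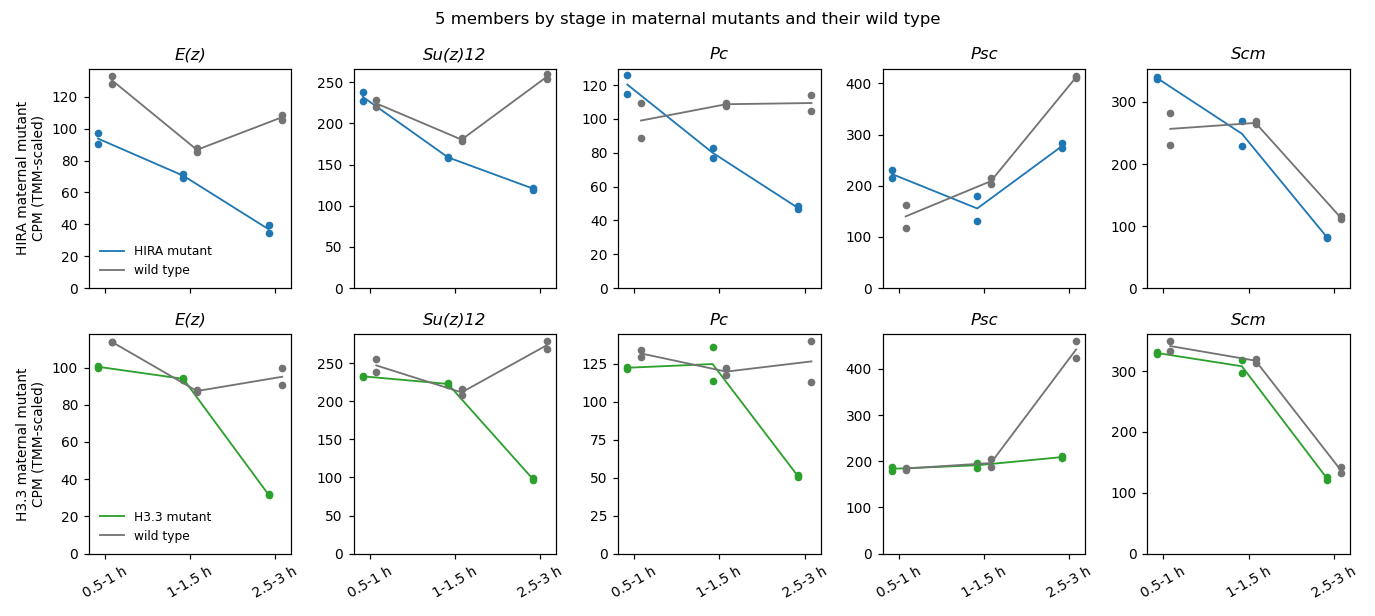
CPM of *E(z)*, *Su(z)12*, *Pc*, *Psc* and *Scm* against age in *HIRA* mutants (top, blue) and *H3.3* mutants (bottom, green), each with its wild type in grey. Points are libraries and lines join means of 2; at 2.5 to 3 h *E(z)* lies at 34.5 and 39.3 CPM in *HIRA* mutants and at 31.3 and 32.1 CPM in *H3.3* mutants, and every wild-type library there is at 90.5 CPM or more.

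At the 2 earlier ages of the *H3.3* experiment 3 members changed each time, *ph-p* and 2 others. *Sce*, the ubiquitin ligase gene of PRC1, had 50.9 and 52.5 CPM at 0.5 to 1 h, against 72.1 and 70.7 CPM in wild type (log2 fold change -0.46, SE 0.05, adjusted p = 2.86e-06), and 56.1 and 59.1 CPM at 1 to 1.5 h, against 72.1 and 69.5 CPM (log2 fold change -0.30, adjusted p = 3.26e-04). *Sce* was thus lower in *H3.3* mutants at all 3 ages. The other changes were in *E(z)* at 0.5 to 1 h (log2 fold change -0.18, adjusted p = 0.0114) and in *esc* at 1 to 1.5 h (log2 fold change -0.19, adjusted p = 0.0088). Both small changes lost their call without 1 library: *E(z)* without either wild-type library (adjusted p = 0.0504 and 0.0534), *esc* without mutant replicate 1 (0.0531) or wild-type replicate 1 (0.107). *ph-p* was the 1 member higher at each age (15.8% and 22.1% of genes were higher), and 2 were lower each time (18.2% and 20.2%). Yolk protein markers at 1 to 1.5 h summed to 359 and 403 CPM in mutants and 0.0709 and 0.208 CPM in wild type, and muscle markers to 119 and 113 CPM in mutants and 14.6 and 15.2 CPM in wild type, and their part was not tested. *E(z)*, *Su(z)12* and *Pc* had log2 fold changes of 0.10, 0.07 and 0.06 at 1 to 1.5 h (adjusted p = 0.12, 0.25 and 0.616). The effect at 2.5 to 3 h minus that at 1 to 1.5 h was -1.69 for *E(z)* (SE 0.08, adjusted p = 2.06e-11) and -1.56 for *Su(z)12* (SE 0.07, adjusted p = 2.17e-11), so these differences with age exceed the spread between libraries, and 28.2% of genes had one beyond 1.

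With HIRA overexpressed, the PRC2 genes and *Pc* were lower than wild type at 1 to 1.5 h, and with dPCIF1 overexpressed as well they were higher than with HIRA alone. The comparisons with wild type share the same 2 wild-type libraries at each age. At 1 to 1.5 h *E(z)* had 68.1 and 69.0 CPM with both proteins, 43.3 and 43.9 CPM with HIRA alone and 91.5 and 92.1 CPM in wild type. The log2 fold change was -1.08 for HIRA alone over wild type (SE 0.04, adjusted p = 5.80e-14) and 0.65 for both over HIRA alone (SE 0.05, adjusted p = 2.35e-10). *Su(z)12* had 164 and 175 CPM with both, 96.5 and 101 CPM with HIRA alone and 194 and 191 CPM in wild type. Its log2 fold change was -0.97 for HIRA alone over wild type (adjusted p = 9.41e-14) and 0.78 for both over HIRA alone (adjusted p = 4.41e-12). For these genes the 3 groups do not overlap, and co-overexpression lies between the others. *Pc* had 89.1 and 88.6 CPM with both, 55.8 and 61.7 CPM with HIRA alone and 92.2 and 92.1 CPM in wild type (both over HIRA alone, log2 fold change 0.60, SE 0.05, adjusted p = 1.32e-09). *Scm* and *esc* were also higher with both than with HIRA alone (both over HIRA alone, log2 fold change 0.35 and 0.26, adjusted p = 6.72e-08 and 2.91e-06). *ph-p* ran the other way, with 25.9 and 24.6 CPM with both and 48.0 and 46.5 CPM with HIRA alone (log2 fold change -0.90, SE 0.06, adjusted p = 7.08e-11).

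For HIRA alone 3 members were higher (33.2% of the 8974 genes tested) and 5 lower (35.0%) at 1 to 1.5 h. For both proteins 1 was higher (24.3%) and 3 were lower (26.1%). For both over HIRA alone 5 were higher (40.9%) and 4 lower (29.1%). Members' median log2 fold changes were -0.14, -0.04 and 0.10 for these comparisons, and those of all genes 0.01, 0.00 and 0.06. At 0.5 to 1 h the members other than *ph-p* lay within a log2 of -0.29 to 0.08 of wild type. With HIRA alone 1 was higher (21.1%) and 3 were lower (25.1%), with both 1 was higher (22.9%) and 3 were lower (22.6%), and over HIRA alone co-overexpression had 0 higher (20.6%) and 3 lower (18.8%). Without wild-type replicate 2 these counts against wild type were 2 members changed in each comparison, and for HIRA alone 2 also without its own replicate 2. *ph-p* then had 20.9 and 21.6 CPM with both and 32.1 and 29.7 CPM with HIRA alone (log2 fold change -0.54, SE 0.06, adjusted p = 1.39e-06). Zygotic markers at 1 to 1.5 h summed to 208 and 218 CPM with both, 463 and 462 CPM with HIRA alone and 105 and 108 CPM in wild type, and maternal markers to 3328 and 3327 CPM with both, 2089.8 and 2100.1 CPM with HIRA alone and 3215 and 3218 CPM in wild type. Their part in the result was not tested.

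**Figure D5:**
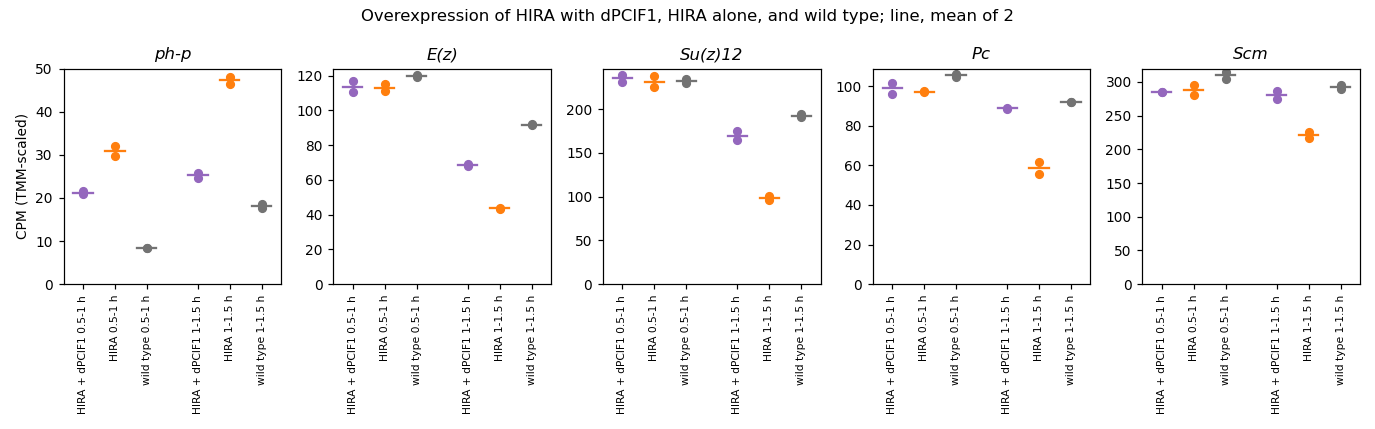
CPM of *ph-p*, *E(z)*, *Su(z)12*, *Pc* and *Scm* with HIRA and dPCIF1 overexpressed, HIRA alone overexpressed, and wild type, at 0.5 to 1 h and 1 to 1.5 h. Points are libraries and lines are means of 2; at 1 to 1.5 h *Su(z)12* lies at 164 and 175 CPM with both, 96.5 and 101 CPM with HIRA alone, and 194 and 191 CPM in wild type.

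Embryos with dPCIF1 S111A S115A differed from wild type in *ph-p* most, as given above, and in the PRC2 genes *E(z)* and *Su(z)12* at 1 to 1.5 h. *E(z)* had 74.4 and 73.5 CPM, against 95.8 and 97.0 CPM in wild type (log2 fold change -0.38, SE 0.04, adjusted p = 1.04e-05). *Su(z)12* had 159 and 161 CPM, against 202 and 199 CPM (log2 fold change -0.32, SE 0.04, adjusted p = 1.99e-05). *Scm* had 256 and 249.8 CPM, against 322 and 313 CPM (log2 fold change -0.33, adjusted p = 2.29e-05). For *E(z)*, *Su(z)12* and *Scm* both mutant libraries lay below both wild-type libraries. The PRC2 gene *esc* had 103 and 95.0 CPM at 1 to 1.5 h, against 92.8 and 102.8 CPM in wild type, which overlap. *Pc* was lower at both ages, with log2 fold changes of -0.24 at 0.5 to 1 h and -0.22 at 1 to 1.5 h (adjusted p = 7.88e-04 and 9.81e-04). *Psc* was lower at 0.5 to 1 h, with 140.4 and 136 CPM, against 173 and 168 CPM (log2 fold change -0.31, adjusted p = 8.48e-05). At 0.5 to 1 h 1 member was higher (13.9% of the 8746 genes tested) and 3 were lower (16.1%), and at 1 to 1.5 h 2 were higher (22.9%) and 4 lower (25.3%). The members' median was -0.05 and then -0.04, and that of all genes -0.01 and 0.00. The members higher at 1 to 1.5 h were *ph-p* and *Sce*, with *Sce* at 75.9 and 73.2 CPM, against 67.2 and 63.9 CPM in wild type. Without wild-type replicate 2 at 1 to 1.5 h the log2 fold change of *ph-p* was 0.97 in place of 1.08. In that fit *Sce* was at 0.11 and *pho* at -0.20, and without mutant replicate 1 *Sce* was at 0.12. The count of members changed at 1 to 1.5 h therefore depends on single libraries. Zygotic markers at that age summed to 259.9 and 316 CPM in S111A S115A embryos and 169 and 153 CPM in wild type.

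*Psc*, *esc* and *pho* each have a close relative outside the 10 that can stand in for them in the fly, and all 3 relatives fell in wild type between 1 to 1.5 h and 2.5 to 3 h. *escl*, the relative of *esc*, had 5.50 and 4.04 CPM at 2.5 to 3 h and 26.3 and 28.6 CPM at 1 to 1.5 h in wild type of the *HIRA* experiment (log2 fold change -2.50, adjusted p = 4.48e-09). *phol*, the relative of *pho*, had 68.7 and 62.7 CPM at 2.5 to 3 h and 296 and 288 CPM at 1 to 1.5 h (log2 fold change -2.15, adjusted p = 8.62e-11). *Su(z)2*, the relative of *Psc*, had 10.2 and 10.8 CPM at 2.5 to 3 h and 20.3 and 21.3 CPM at 1 to 1.5 h (log2 fold change -0.996, adjusted p = 0.00173). The member's share of the pair's TPM was larger at 2.5 to 3 h, for *pho* 80.6% and 79.4% there against 46.9% and 46.9% at 1 to 1.5 h. *escl* was lower than wild type in dPCIF1-mislocalized embryos at 1 to 1.5 h, with 7.01 and 7.76 CPM against 25.4 and 24.9 CPM (log2 fold change -1.76, adjusted p = 6.30e-13), and under HIRA overexpression, with 8.82 and 8.32 CPM against 25.7 and 26.01 CPM (log2 fold change -1.59, adjusted p = 1.75e-10). It had 19.5 and 16.0 CPM when dPCIF1 was overexpressed as well. *Su(z)2* was higher than wild type in *H3.3* mutants at 2.5 to 3 h, with 16.1 and 17.1 CPM against 10.6 and 13.7 CPM (log2 fold change 0.46, adjusted p = 9.53e-04), where *Psc* was lower. In *HIRA* mutants at that age both were lower (*Su(z)2* log2 fold change -1.04, adjusted p = 0.00845).

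Of 24 other Polycomb group genes, all tested in every experiment, 14 were higher (40.0% of all genes) and 10 lower (41.7%) in dPCIF1-mislocalized embryos at 1 to 1.5 h. In *HIRA* mutants at 2.5 to 3 h 6 were higher (26.9%) and 10 lower (48.1%), and in *H3.3* mutants at that age 5 were higher (40.0%) and 18 lower (42.5%). Under HIRA overexpression at 1 to 1.5 h 8 were higher (33.2%) and 10 lower (35.0%). Their median log2 fold changes in these comparisons were 0.11, -0.19, -0.43 and 0.00, and those of all genes -0.01, -0.28, -0.06 and 0.01. In *HIRA* and *H3.3* mutants at 2.5 to 3 h the values over all genes depended on the scaling, as given above. The counts and medians of this list are given with scaling by experiment only. *calypso*, which encodes the deubiquitinase of the Polycomb group, had 16.4 and 15.2 CPM in *HIRA* mutants at 2.5 to 3 h, against 45.7 and 45.4 CPM in wild type (log2 fold change -1.53, adjusted p = 3.50e-09), and 12.48 and 13.6 CPM in *H3.3* mutants, against 42.5 and 48.5 CPM (log2 fold change -1.80, adjusted p = 6.42e-12). *l(3)73Ah*, a relative of *Psc*, had 35.2 and 36.8 CPM in dPCIF1-mislocalized embryos at 1 to 1.5 h, against 77.0 and 76.4 CPM (log2 fold change -1.09, adjusted p = 1.41e-12). *crm* moved the other way at 2.5 to 3 h, with 229.98 and 238 CPM in *HIRA* mutants, against 74.2 and 77.2 CPM (log2 fold change 1.63, adjusted p = 4.76e-10), while it fell with age in wild type between 1 to 1.5 h and 2.5 to 3 h (log2 fold change -2.11, adjusted p = 8.99e-12). *jing*, a zinc finger gene of the list, had 237 and 229 CPM in *H3.3* mutants at 2.5 to 3 h, against 846 and 938 CPM (log2 fold change -1.93, adjusted p = 7.72e-14). *corto* had 193 and 213 CPM in *HIRA* mutants at 0.5 to 1 h, against 74.8 and 106 CPM (log2 fold change 1.17, adjusted p = 1.61e-04), and 76.7 and 100.4 CPM at 1 to 1.5 h, against 192 and 197 CPM (log2 fold change -1.13, adjusted p = 1.52e-04). The *corto* values include the discordant wild-type libraries at 0.5 to 1 h and mutant libraries at 1 to 1.5 h, with replicate 1 the lower in both groups.

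The Trithorax group acts against Polycomb silencing and holds developmental genes active. Of 24 such genes, 0 were higher (40.0% of all genes) and 24 lower (42.5%) in *H3.3* mutants at 2.5 to 3 h, with a median log2 fold change of -0.69, against -0.06 over all genes. In *HIRA* mutants at that age 2 were higher (26.9%) and 10 lower (48.1%), with a median of -0.09, against -0.28 over all genes. The values over all genes at this age depended on the scaling, as given above. The counts and medians of the list are given with scaling by experiment only. *trx* itself had 368 and 343 CPM in *H3.3* mutants, against 1013 and 1067 CPM (log2 fold change -1.55, adjusted p = 4.11e-13). In dPCIF1-mislocalized embryos at 1 to 1.5 h 17 of the 24 were higher (40.0%) and 4 lower (41.7%). Their median log2 fold change was 0.28, against -0.01 over all genes. *tna* had 27.9 and 28.4 CPM in dPCIF1-mislocalized embryos at 1 to 1.5 h, against 8.71 and 8.58 CPM (log2 fold change 1.70, adjusted p = 5.95e-12), and 69.9 and 64.2 CPM in *H3.3* mutants at 2.5 to 3 h, against 224 and 249 CPM (log2 fold change -1.82, adjusted p = 6.53e-13). The 8 Hox genes are the classic targets of both groups. In dPCIF1-mislocalized embryos 4 were higher at 0.5 to 1 h (40.0% of all genes) and 8 at 1 to 1.5 h (40.0%). In *HIRA* mutants 5 were lower at 0.5 to 1 h (29.8%), 8 at 1 to 1.5 h (34.5%) and 6 at 2.5 to 3 h (48.1%). In *H3.3* mutants 5 were higher at 0.5 to 1 h (15.8%), 2 higher at 1 to 1.5 h (22.1%) and 8 lower at 2.5 to 3 h (42.5%). Under HIRA overexpression 8 were higher at 0.5 to 1 h (21.1%) and 7 at 1 to 1.5 h (33.2%). With dPCIF1 overexpressed as well 5 were higher at 0.5 to 1 h (22.9%) and 5 lower at 1 to 1.5 h (26.1%), and with S111A S115A 4 were lower at 0.5 to 1 h (16.1%) and 7 higher at 1 to 1.5 h (22.9%). No Hox gene passed the test in the other direction in any of these 14 comparisons. *Antp* had 28.6 and 31.9 CPM in dPCIF1-mislocalized embryos at 1 to 1.5 h, against 6.72 and 6.70 CPM (log2 fold change 2.17, adjusted p = 2.87e-13), and 39.2 and 38.8 CPM in *H3.3* mutants at 2.5 to 3 h, against 114.9 and 132 CPM (log2 fold change -1.66, adjusted p = 1.25e-11). All 8 also rose with age in wild type of the *HIRA* and *H3.3* experiments from 1 to 1.5 h to 2.5 to 3 h.

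Over the 26 group means of log2 CPM, *Scm* and *esc* were the most alike of the members (r = 0.96), then *E(z)* and *Su(z)12* (r = 0.94) and *Psc* and *ph-d* (r = 0.92). *Pc* was nearest to *Su(z)12* (r = 0.80) and far from *Psc* (r = 0.06), its partner in PRC1. *ph-p* and *esc* ran most against each other (r = -0.86). The groups share ages and experiments, so these coefficients are descriptions without a test. Among 6891 genes with a mean of at least 5 CPM, the nearest to *ph-p* was *sprt* (r = 0.98), to *ph-d* *Nup153* (r = 0.98), to *Psc* *Dyrk2* (r = 0.97), to *Pc* *mei-218* (r = 0.92), to *Sce* *eIF3-S10* (r = 0.88) and to *Scm* *casp* (r = 0.99). The nearest to *E(z)* was *Sec61beta* (r = 0.97), to *esc* *CG10366* (r = 0.99), to *Su(z)12* *MED17* (r = 0.97) and to *pho* *Eph* (r = 0.92). *Sce* had the narrowest range of group means, with 51.7 ± 1.13 CPM in *H3.3* mutants at 0.5 to 1 h and 89.6 ± 1.49 CPM in wild type of that experiment at 2.5 to 3 h (SD, n = 2), a ratio of 1.73 of the highest to the lowest.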

How the data were processed

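RNA of hand-selected embryo pools was sequenced as stranded libraries after rRNA depletion per the study's methods, while the labels give the molecule as polyA RNA. Per the submitters' notes, Trimmomatic (0.39) and STAR (2.7.10a, on dm6) came before counting, and the authors deposited RSEM (1.3.1) expected counts and TPM per gene for each library, and used DESeq2 (1.40.2) for their own tests. Expected counts, as deposited by the authors, were rounded to whole numbers and fitted here by experiment with 1 coefficient per group in edgeR (4.0.16) with limma (3.58.1) in R (4.3.3), using filterByExpr (minimum count 10, minimum total 15), TMM scaling, the quasi-likelihood test and Benjamini-Hochberg adjustment over all genes tested. Changed means an adjusted p under 0.05, and the second limit is an absolute log2 fold change above 1. Each SE is the absolute log2 fold change divided by the square root of F. CPM are expected counts relative to the TMM-scaled size of the library of the gene's own experiment. The deposited TPM, which depend on transcript length, served to compare genes with each other, within a library or as medians over wild-type libraries. Those medians pool libraries of different experiments, and TPM were not rescaled between experiments. Libraries held 15073545 to 31579940 reads, and no interval beyond the spread of 2 libraries is given.

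The comparisons were 14 of a genotype with its own wild type, 2 of co-overexpression with HIRA alone, 7 between ages of wild type and 8 changes of an effect between ages. The members, gene lists and tests were chosen with earlier results of these data known. Named outside the members were at most 3 genes per list and comparison with the largest change past both limits and 5 CPM, at most 3 Hox genes, the genes the study altered, *Trl*, and the nearest gene to each member by Pearson's r over 26 group means of log2(CPM + 0.5). *ph-p* and *ph-d* counts were also summed and fitted, as an alternative added after seeing the data. Alternatives were DESeq2 (1.42.0), library totals, TMM over 52 libraries, no filter, 2 groups only, a replicate block and leaving out each library, where edgeR assumes that the lone library varies like the other groups. The scripts were tested on simulated counts. Promoter motifs were planned but not run, as no promoter table was used here.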

Additional observations from a re-analysis of the deposited data

Results flagged for a closer look

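In 12 cases the difference of a member from wild type changed between ages by a log2 of more than 1 with an adjusted p under 0.05, by edgeR's quasi-likelihood test of the later effect minus the earlier effect. In dPCIF1-mislocalized embryos, from 0.5 to 1 h to 1 to 1.5 h, the effect on *ph-p* changed by 1.76 (SE 0.11, adjusted p = 5.57e-10) and that on *Pc* by -1.03 (SE 0.06, adjusted p = 2.08e-10). Of the 8700 genes tested, 16.1% passed the same limits.

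In *HIRA* mutants, over the same ages, the effect changed by -1.83 for *pho* (adjusted p = 0.00616), -1.10 for *ph-p* (adjusted p = 3.78e-05) and -1.10 for *Psc* (adjusted p = 0.00436), where 7.86% of genes passed. From 1 to 1.5 h to 2.5 to 3 h it changed by -1.24 for *E(z)* (adjusted p = 1.01e-06) and by 1.18 for *pho* (adjusted p = 0.0222), where 20.7% passed. The values of *pho* and *Psc* include the discordant wild-type libraries at 0.5 to 1 h and mutant libraries at 1 to 1.5 h.

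In *H3.3* mutants, from 1 to 1.5 h to 2.5 to 3 h, the effect changed by -2.54 for *ph-p* (adjusted p = 6.97e-12), -1.69 for *E(z)* (adjusted p = 2.06e-11), -1.56 for *Su(z)12* (adjusted p = 2.17e-11), -1.36 for *Pc* (adjusted p = 7.29e-08) and -1.04 for *Psc* (adjusted p = 1.48e-08). Of the 10644 genes tested, 28.2% passed these limits.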

How the results depend on the processing

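Groups hold 2 libraries, so the spread is estimated over all groups of an experiment, and the split of shared reads is uncertain for *ph-p* and *ph-d*, of which *ph-p* had the fewest reads among the members at 0.5 to 1 h. Replicate numbers did not pair libraries in a regular way, since correlations of same-numbered deviations ran from -0.39 to 0.75. The highest was between wild type at 0.5 to 1 h and mutants at 1 to 1.5 h of the *HIRA* experiment, which are discordant groups. The replicate block changed 2 of 310 single calls, *Psc* between ages in wild type of the overexpression experiment and *pho* in the change of the co-overexpression effect. It moved no count of members by more than 1.5 times. A crossed pairing, added after seeing the data, called 8 members in *HIRA* mutants at 1 to 1.5 h (6 with the numbers as given, 7 with no block), 4 in *H3.3* mutants at 0.5 to 1 h (4 and 4) and 6 in S111A S115A embryos at 1 to 1.5 h (6 and 6). Paralog shares moved with expected counts in place of TPM by at most 0.569 points for the *ph* pair and 10.7 points for *pho* and *phol*, and library totals gave levels of 0.922 to 1.17 times the CPM given here.

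Members changed numbered 8 in *HIRA* mutants at 0.5 to 1 h, but 5 with DESeq2, 4 with only the 2 groups fitted and 4 to 8 with 1 library left out, and 8 at 1 to 1.5 h, but 3 to 7 with 1 library left out. They numbered 4 to 8 with 1 library left out in wild type of the *HIRA* experiment over the first 2 ages, against 7, 3 to 5 in wild type of the S111A S115A experiment, against 5, and 6 with only the 2 groups fitted in wild type of the *H3.3* experiment, against 3. Under HIRA overexpression at 0.5 to 1 h they numbered 2 with library totals and 2 to 3 with 1 library left out, against 4, and under co-overexpression 8 with all 52 libraries scaled together and 2 to 4 with 1 left out, against 4. For the change of the *H3.3* effect between the first 2 ages DESeq2 called 1, against 2.

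Members beyond a log2 of 1 numbered 0 in dPCIF1-mislocalized embryos at 0.5 to 1 h with DESeq2 or no filter on low counts and 0 to 1 with 1 library left out, against 1, and 1 at 1 to 1.5 h with library totals, against 2, and the change of effect had 1 with DESeq2, against 2. In *HIRA* mutants they numbered 0 to 1 at 0.5 to 1 h with 1 library left out, against 0. At 1 to 1.5 h they were 0 with DESeq2, with all 52 libraries scaled together or with only the 2 groups fitted, and 0 to 1 with 1 library left out, against 1. At 2.5 to 3 h they were 1 with all 52 libraries scaled together or only the 2 groups fitted, against 3, and the change of effect over the first 2 ages had 1 with DESeq2 or library totals, against 3. They numbered 1 to 2 with 1 library left out in wild type of the *HIRA* experiment, against 1, 3 with library totals in *H3.3* mutants at 2.5 to 3 h, against 5, 1 under HIRA overexpression at 1 to 1.5 h with library totals, against 2, 1 for both over HIRA alone with library totals, against 0, 1 for the change of the HIRA overexpression effect with no filter, against 0, and 0 to 1 in S111A S115A embryos at 1 to 1.5 h with 1 library left out, against 1.

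Signs turned with library totals for *Scm* (0.12) and *esc* (0.011) in dPCIF1-mislocalized embryos at 0.5 to 1 h, *Scm* (0.16) and *esc* (0.065) in *H3.3* mutants at 2.5 to 3 h, and *Sce* (0.018) and *esc* (0.22) in the change of that effect. In *HIRA* mutants at 2.5 to 3 h they turned for *ph-d* (0.048) and *Sce* (0.23) with all 52 libraries scaled together and for *ph-d* (0.025) and *Sce* (0.21) with only the 2 groups fitted, which also turned *Pc* (-0.18) and *Sce* (-0.037) between ages in wild type of that experiment. With *ph-p* and *ph-d* added together, a fit chosen after seeing the data, the *ph-p* value turned to 0.067 in the change of the *H3.3* effect over the first 2 ages, 0.069 and 0.0065 in the changes of the HIRA and co-overexpression effects, and -0.051 in S111A S115A embryos at 0.5 to 1 h. The cause of these differences was not tested. Over all genes, library totals gave 4312 higher and 2246 lower (3477 and 2985 with scaling by experiment) in dPCIF1-mislocalized embryos and 1296 and 4734 (2398 and 3174) in *HIRA* mutants at 0.5 to 1 h, 2156 and 1617 (1679 and 1935) in *H3.3* mutants and 1606 and 1051 (1215 and 1411) in S111A S115A embryos at that age, 3973 and 2573 (2983 and 3142) under HIRA overexpression at 1 to 1.5 h, and 1383 and 1972 (1845 and 1686) and 2693 and 3574 (3670 and 2613) for both over HIRA alone at 0.5 to 1 h and 1 to 1.5 h. All 52 libraries scaled together gave 1484 and 3524 (1897 and 2256) for HIRA and 1550 and 2728 (2054 and 2031) for both over wild type at 0.5 to 1 h.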

Other observations

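*Trl*, which encodes GAGA factor, a DNA-binding protein that sits at many Polycomb response elements, had 251 and 236 CPM in dPCIF1-mislocalized embryos at 1 to 1.5 h, against 148 and 145 CPM in wild type (log2 fold change 0.74, adjusted p = 2.93e-12). At 0.5 to 1 h *Trl* had 186 and 193 CPM in mislocalized embryos, against 131 and 132 CPM (log2 fold change 0.53, adjusted p = 9.24e-10). It was lower in *H3.3* mutants at 2.5 to 3 h, with 261 and 265 CPM against 325 and 432 CPM (log2 fold change -0.53, adjusted p = 1.25e-04). In *HIRA* mutants at that age *Trl* had 314 and 290.2 CPM and wild type 313 and 319 CPM (log2 fold change -0.07, adjusted p = 0.46).

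The RNAs that the study altered also differed in embryos where they were not the target. *CG11399* had 156 and 158 CPM in *HIRA* mutants at 2.5 to 3 h, against 74.7 and 73.1 CPM in wild type (log2 fold change 1.08, adjusted p = 5.62e-09), and 219 and 214 CPM in *H3.3* mutants, against 87.4 and 86.5 CPM (log2 fold change 1.32, adjusted p = 6.55e-12). *Hira* had 78.0 and 74.2 CPM in dPCIF1-mislocalized embryos at 1 to 1.5 h, against 146 and 145 CPM in wild type (log2 fold change -0.94, adjusted p = 9.63e-14).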
